A study of Mus musculus with 9 samples.

Results

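The 10 genes described here encode proteins of the actin cytoskeleton and of cell motility. They were taken by symbol from the 27998 genes of the gene tables. Actb encodes cytoplasmic actin, Tmsb4x and Pfn1 the monomer-binding proteins thymosin β4 and profilin 1, Cfl1 the severing protein cofilin 1, and Coro1a coronin 1A. Arpc2, Arpc3 and Arpc1b encode subunits of the Arp2/3 complex, Lcp1 the bundling protein L-plastin, and Vim the intermediate filament protein vimentin. Counts were unique molecular identifiers (UMIs) of single cells, and a cell barcode found in several libraries counted only in that with its highest total.

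The cells were sorted as alive, CD45+ and CD11b+ from dissociated retinas of female Arr1-/- mice. These mice lack visual arrestin, were bred in the dark, and lose their photoreceptors in constant room light. Retinas were taken after 0 days of light (labelled healthy), after 7 days (labelled as just after degeneration) and after 20 days (labelled as long after it), with 3 droplet-based 3′ libraries per day. All 3 groups carry the arrestin deletion, and no library came from wild-type mice. The labels do not tie libraries to animals, so p-values measure the spread between libraries, which may be technical.

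Actin monomers assemble into filaments that push the cell membrane forward, hold processes out and close around engulfed particles. Profilin and thymosin β4 control the pool of free monomers, the Arp2/3 complex starts new branches on existing filaments, and cofilin and coronin take filaments apart. Microglia and macrophages rely on this turnover when they survey tissue, change shape and phagocytose.

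Of 1365 different barcodes in the 9 libraries, 612 occurred in more than 1 library and 270 in all 9. Keeping each in 1 library left 1465823 of 3033324 UMIs. After quality control, a cluster of 74 cells led by rod genes and a cluster of 70 led by Müller glia genes were removed. The latter also had the MHC class II gene H2-Ab1 among its 10 leading genes, and whether it held immune cells was not tested. Of 851 cells, 707 remained, 254 of them at day 0, 267 at day 7 and 186 at day 20. Day 7 replicate 3 had 10 of these cells and 6673 UMIs, and day 20 replicate 3 had 22 cells and 21709 UMIs, whereas the other 7 libraries had 55 to 187 cells and 78622 to 227751 UMIs. Ptprc, which encodes CD45, and Itgam, which encodes CD11b, had 142 and 216 UMIs in the retained cells, with 0 of each in day 7 replicate 3. The deleted gene Sag had 5 UMIs. Itgam is listed under 2 gene identifiers, and the count is their sum.

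The reference sequence before the start of transcription is shown for the genes called in at least 1 comparison below that have an entry in the RefSeq promoter table, the first window where there are several. Of the 10 genes, 9 had an entry. Each line gives 250 bases upstream of a RefSeq start on build GRCm38.p6, and capitals mark TATAAA, the CCAAT letters or the GGGCGG letters on either strand.
Vim, chr2:13574061-13574310, plus strand: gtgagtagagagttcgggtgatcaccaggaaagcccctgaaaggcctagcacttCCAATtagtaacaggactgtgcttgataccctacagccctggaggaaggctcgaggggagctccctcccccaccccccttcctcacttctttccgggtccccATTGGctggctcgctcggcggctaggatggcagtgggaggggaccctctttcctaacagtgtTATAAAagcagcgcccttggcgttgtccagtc
Arpc3, chr5:122391628-122391877, plus strand: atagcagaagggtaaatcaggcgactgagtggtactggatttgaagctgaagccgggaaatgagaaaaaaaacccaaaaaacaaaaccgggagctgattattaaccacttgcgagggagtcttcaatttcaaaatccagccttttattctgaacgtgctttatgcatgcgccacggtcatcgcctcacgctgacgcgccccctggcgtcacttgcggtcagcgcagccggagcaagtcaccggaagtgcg
Coro1a, chr7:126704817-126705066, minus strand: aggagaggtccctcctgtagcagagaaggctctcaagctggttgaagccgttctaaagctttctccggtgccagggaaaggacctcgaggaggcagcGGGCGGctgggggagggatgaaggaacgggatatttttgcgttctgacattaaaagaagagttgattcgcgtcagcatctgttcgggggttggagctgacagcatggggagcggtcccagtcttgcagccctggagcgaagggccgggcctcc
Among the 9, TATAAA occurred for Vim alone, which 12.4% of 32851 windows of this length hold. The CCAAT letters were found for Vim and Cfl1 (33.8% of all windows) and GGGCGG for 6 of the 9 (32.7%), Coro1a among them. The CArG box bound by serum response factor, a regulator of many cytoskeletal genes, had no match in the 11 windows of these 9 genes. It matches only 1.47% of all windows, so no match in so few cannot show a lack of it. None of these letters lay in the window of Arpc3. On this build GENCODE M21 places the protein-coding genes Vim at 13573927 to 13582826 on chromosome 2, Arpc3 at 122391878 to 122414184 on chromosome 5 and Coro1a at 126699773 to 126707787 on chromosome 7. The window of Arpc3 ends at the base before its gene, and those of Vim and Coro1a lie inside the GENCODE spans. Actb, whose window is not in the table, is at 142903115 to 142906754 on chromosome 5. The matches describe the windows and are not known binding sites.

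Together the 10 genes made up 2.62% ± 0.11 of all UMIs before light (mean and SD of 3 libraries). After 7 days they made up 2.19% ± 0.15, and after 20 days 2.95% ± 0.15. The libraries ranged from 2.50% to 2.68% at day 0, from 2.02% to 2.32% at day 7 and from 2.83% to 3.12% at day 20, so the days did not overlap. Without Actb the other 9 genes gave 2.01% ± 0.13, 1.98% ± 0.11 and 2.39% ± 0.30. The ranges of day 0 and day 7 then overlapped, while day 7 (at most 2.086%) still lay just below day 20 (at least 2.088%). Tmsb4x alone made up 53.2% to 60.9% of the members' UMIs at day 0 and 70.2% to 73.3% at day 7. These shares of UMIs were not tested.

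Levels below are given as CPM, the UMIs of a gene in the retained cells scaled to the same total in every library. They were compared between days with edgeR's quasi-likelihood test on UMI sums per library, with Benjamini-Hochberg adjustment over all genes tested and a threshold of 0.05. That test also scaled the libraries by TMM factors, which CPM leaves out. Computed over all genes, such factors ran from 0.646 in day 7 replicate 1 to 2.08 in day 7 replicate 3. Statements of overlap are for CPM and may not hold on the tested scale. All 10 genes passed the filter on low counts, which left 1292 genes.

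At day 7, Actb and Coro1a were lower than at day 0 and Arpc3 and Vim were higher, while the other 6 genes did not pass the test. The 2 higher and 2 lower calls among 10 genes stand against 11.9% of all tested genes called higher and 21.5% called lower, or 33.4% either way. The libraries of the 2 days did not overlap for 7 of the 10 genes, against 42.5% of all genes. Without day 7 replicate 3, which had 10 cells, 283 of 1978 tested genes were called higher and 297 lower. With it, 154 and 278 of 1292 were called. The median log2 difference was -0.23 over the 10 genes and -0.12 over all genes. Without the 2 small libraries the test called 5 members, adding Arpc1b as higher, and 687 of 2226 genes. Without the cluster led by immediate early genes described below, it called Actb and Cfl1, both lower, and 106 of 1025 genes. Vim was then no longer tested. In the libraries as deposited, with shared barcodes counted in each, the test called none of the 10 at day 7 and 69 of 2623 genes. Actb there had a log2 difference of -0.75 (edgeR adjusted p = 0.051). Without the filter on low counts the test also called none of the 10, and 253 of 12601 genes. With library totals in place of TMM scaling the median of all genes moved from -0.12 to -0.30, and Actb stood at -1.28 relative to the median with TMM and at -1.22 with library totals.

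Cytoplasmic β-actin is the filament-forming protein itself and, after Tmsb4x, Actb was the most abundant of the 10 transcripts. Its level was 5891, 5986 and 6388 CPM in the 3 libraries of day 0, then 2358, 2550 and 1499 at day 7, and 8140, 4543 and 4284 at day 20. Every library of day 7 lay below every library of day 0 and of day 20, and the libraries of day 20 spread on both sides of day 0. At day 7 Actb fell by 1.40 ± 0.30 on the log2 scale compared with day 0 (edgeR, SE, adjusted p = 0.0022), and the call held whichever of the 9 libraries was left out, with log2 differences from -1.54 to -1.06. It was lost with all barcodes past quality control, the rod-led and Müller-led clusters included (log2 difference -0.93, edgeR adjusted p = 0.101), without the filter on low counts (-1.32, adjusted p = 0.319) and in the deposited counts. At day 20 it was 1.28 ± 0.30 higher than at day 7 (edgeR adjusted p = 0.0123). That call was lost without day 7 replicate 1, day 7 replicate 2, day 20 replicate 1 or day 0 replicate 3, where the adjusted p lay between 0.0539 and 0.455. Between day 20 and day 0 the log2 difference was -0.12 ± 0.29 (edgeR adjusted p = 0.845).

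**Figure D1:**
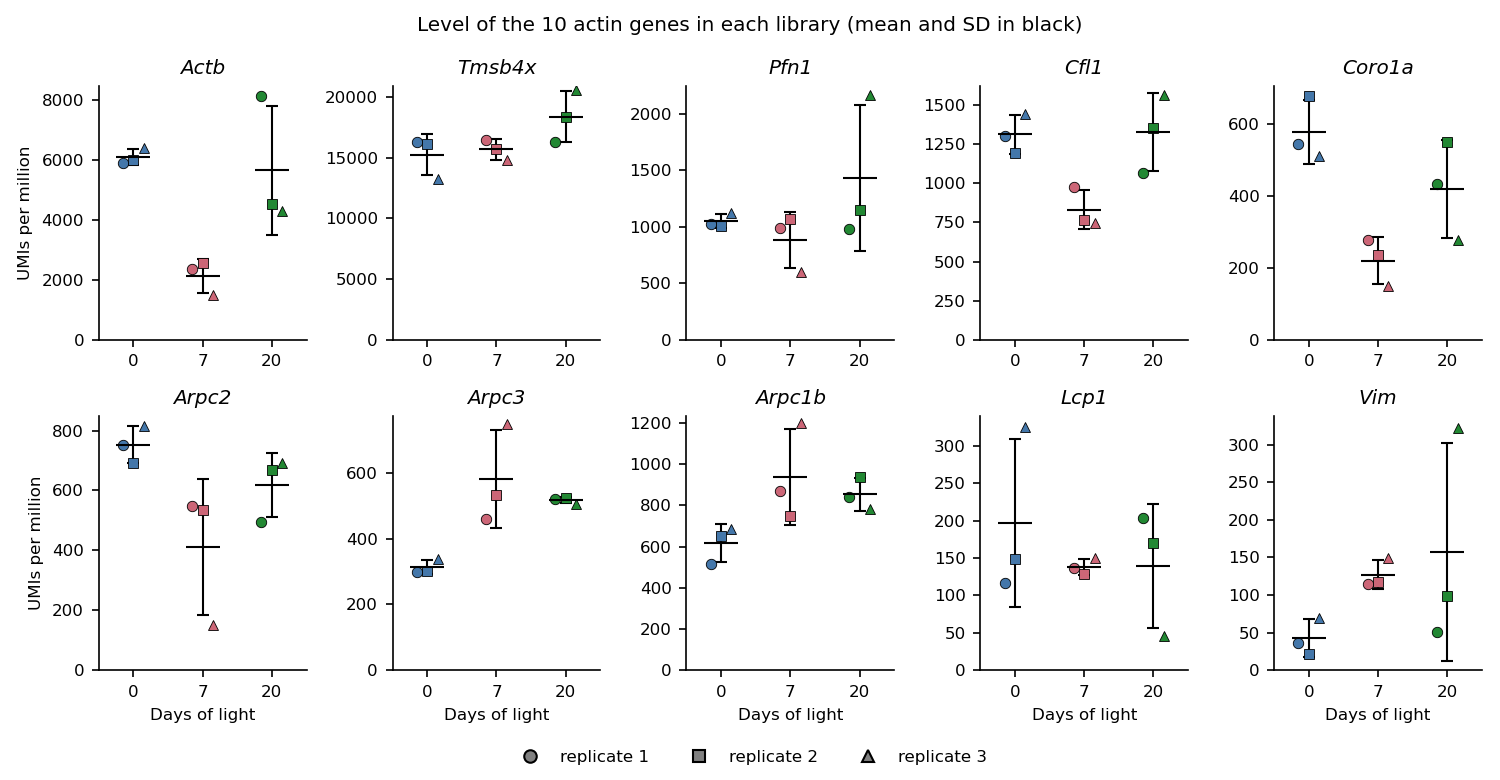
Each panel shows 1 gene, with days of light on the x axis and CPM of a library on a linear y axis from 0. Points are libraries, coloured by day and shaped by replicate number, and black bars are the mean and SD of 3 libraries. Actb lies between 1499 and 2550 at day 7 and at 4284 or higher in every other library.

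Thymosin β4 sequesters actin monomers. Tmsb4x was the most abundant member in every library, at 16310, 16158 and 13277 CPM at day 0, 16487, 15708 and 14836 at day 7, and 16293, 18343 and 20544 at day 20. The libraries of all 3 days overlapped. Actb and Actg1 encode near-identical proteins, and Actb, Tmsb4x, Pfn1 and Cfl1 have processed pseudogenes. Their counts are uncertain as far as reads matched more than 1 copy. The log2 difference of Tmsb4x at day 7 was 0.03 ± 0.23 compared with day 0 (edgeR adjusted p = 0.948), and its sign was negative with library totals or DESeq2 size factors. At day 20 it was 0.23 ± 0.23 compared with day 0 (adjusted p = 0.626) and 0.21 ± 0.23 compared with day 7 (adjusted p = 0.636, both edgeR).

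A ratio of UMIs within a library needs no scaling between libraries, but it depends on which cells the library holds. In day 0 replicate 1, cluster 6, led by immediate early genes and described below, had 473 Actb and 769 Tmsb4x UMIs. Cluster 0 had 138 and 582 there. Actb had 0.361, 0.370 and 0.481 UMIs per UMI of Tmsb4x at day 0. The ratio was 0.143, 0.162 and 0.101 at day 7, the last from 10 and 99 UMIs, and 0.500, 0.248 and 0.209 at day 20. All 3 libraries of day 7 had lower ratios than the 6 others. The pair was chosen after the levels were seen, and the ratio was not tested.

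Profilin 1 hands monomers to growing filament ends. Pfn1 stood at 1022, 1004 and 1117 CPM at day 0, at 984, 1067 and 599 at day 7 and at 979, 1147 and 2165 at day 20. The days overlapped, and the lowest and highest values came from the 2 small libraries, with 4 and 47 UMIs. Against day 0 its log2 difference was -0.07 ± 0.31 after 7 days and 0.34 ± 0.30 after 20 (edgeR adjusted p = 0.893 and 0.600), and 0.41 ± 0.32 between day 20 and day 7 (adjusted p = 0.490). Without both small libraries the first and the last of these changed sign, to 0.26 and -0.12.

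Cofilin 1 severs and depolymerizes filaments. Cfl1 was at 1303, 1195 and 1443 CPM at day 0, 979, 768 and 749 at day 7, the last from 5 UMIs, and 1068, 1350 and 1566 at day 20. In CPM, day 7 lay below both other days without overlap, yet the differences did not pass the test. They were -0.56 ± 0.27 at day 7 compared with day 0 (edgeR adjusted p = 0.111) and 0.52 ± 0.27 at day 20 compared with day 7 (adjusted p = 0.283). With library totals in place of TMM the first of these passed, at -0.70 (edgeR adjusted p = 0.0302). At day 20 compared with day 0 it was -0.04 ± 0.26 (edgeR adjusted p = 0.968).

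Coronin 1A is a filament-binding protein of leukocytes that acts on Arp2/3 branches. Coro1a had 544, 680 and 512 CPM at day 0, 277, 235 and 150 at day 7, the last from 1 UMI, and 432, 551 and 276 at day 20. Day 7 lay below day 0 without overlap, and day 20 overlapped both. In day 7 replicate 1, 10 cells of the removed Müller-led cluster had 39 Coro1a UMIs (667 CPM), against 63 retained (277 CPM). That cluster had 115 CPM in day 7 replicate 3 and 296 in day 20 replicate 3. Coro1a fell by 1.14 ± 0.33 on the log2 scale at day 7 (edgeR adjusted p = 0.0130). The call held without day 20 replicate 2, day 7 replicate 3 or day 20 replicate 3, and was lost without each of the other 6 libraries, with adjusted p from 0.0518 to 0.196 and log2 differences between -1.29 and -0.92 over all 9 fits. It was also lost with all barcodes past quality control, the per-barcode marker rule, a minimum of 100 genes and a 5% mitochondrial limit, with log2 differences from -0.85 to -0.61 and edgeR adjusted p from 0.0589 to 0.395. At day 20 the difference was -0.39 ± 0.30 from day 0 and 0.75 ± 0.34 from day 7 (edgeR adjusted p = 0.554 and 0.214).

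Of the 3 subunits of the Arp2/3 complex, Arpc3 was called at day 7, and Arpc1b and Arpc2 were not. No test of the difference between the subunits was run. Arpc3 was at 299.8, 302.8 and 337.5 CPM at day 0, 461, 534 and 749 at day 7, the last from 5 UMIs, and 521, 524 and 507 at day 20. All 6 libraries after light lay above the 3 of day 0. Arpc3 was 0.78 ± 0.28 higher on the log2 scale at day 7 (edgeR adjusted p = 0.0389), and 0.71 ± 0.27 at day 20 compared with day 0, which did not pass (adjusted p = 0.186, unadjusted p = 0.0181). The call at day 7 held without day 7 replicate 3 or day 20 replicate 3 and was lost without each of the other 7 libraries, where the adjusted p reached 0.25 while the log2 difference stayed between 0.79 and 0.91. It was also lost with library totals (adjusted p = 0.0881), with DESeq2 size factors (adjusted p = 0.0660), with the DESeq2 Wald test (adjusted p = 0.191) and without the deepest 5% of barcodes (edgeR adjusted p = 0.102). With the replicate number as a block it was lost as well (log2 difference 0.80, edgeR adjusted p = 0.0566).

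Arpc1b followed the same order with smaller differences. It was at 514, 653 and 687 CPM at day 0, 869, 747 and 1199 at day 7, the last from 8 UMIs, and 839, 937 and 783 at day 20. In CPM, all 6 libraries after light again lay above day 0. The log2 differences of 0.52 ± 0.27 at day 7 and 0.46 ± 0.27 at day 20 did not pass the test (edgeR adjusted p = 0.153 and 0.411).

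Arpc2, which encodes a core subunit that contacts the mother filament, lay the other way. Its levels were 752, 691 and 815 CPM at day 0, 549, 534 and 150 at day 7, the last from 1 UMI, and 496, 669 and 691 at day 20. In CPM, day 7 was below day 0 without overlap. The log2 differences of -0.52 ± 0.32 at day 7 and -0.32 ± 0.31 at day 20 did not pass (edgeR adjusted p = 0.215 and 0.620). Between day 20 and day 7 the differences were -0.07 ± 0.29 for Arpc3, -0.05 ± 0.28 for Arpc1b and 0.19 ± 0.33 for Arpc2 (edgeR adjusted p = 0.988, 0.962 and 0.780).

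Within a library, Arpc3 had 0.398, 0.438 and 0.414 UMIs per UMI of Arpc2 at day 0. After light the ratio was 0.840, 1.000 and 5.00 at day 7 and 1.05, 0.784 and 0.733 at day 20, with the value of 5.00 resting on 5 and 1 UMIs. Every library after light was above every library of day 0. Arpc1b per Arpc2 showed the same separation, with 0.683 to 0.946 at day 0, 1.40 to 8.0 at day 7 and 1.13 to 1.69 at day 20. Arpc3 per Arpc1b overlapped between the days, at 0.463 to 0.583, 0.530 to 0.714 and 0.559 to 0.647. These pairs too were chosen after the levels were seen, and the ratios were not tested. They also depend on which cells a library holds.

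**Figure D2:**
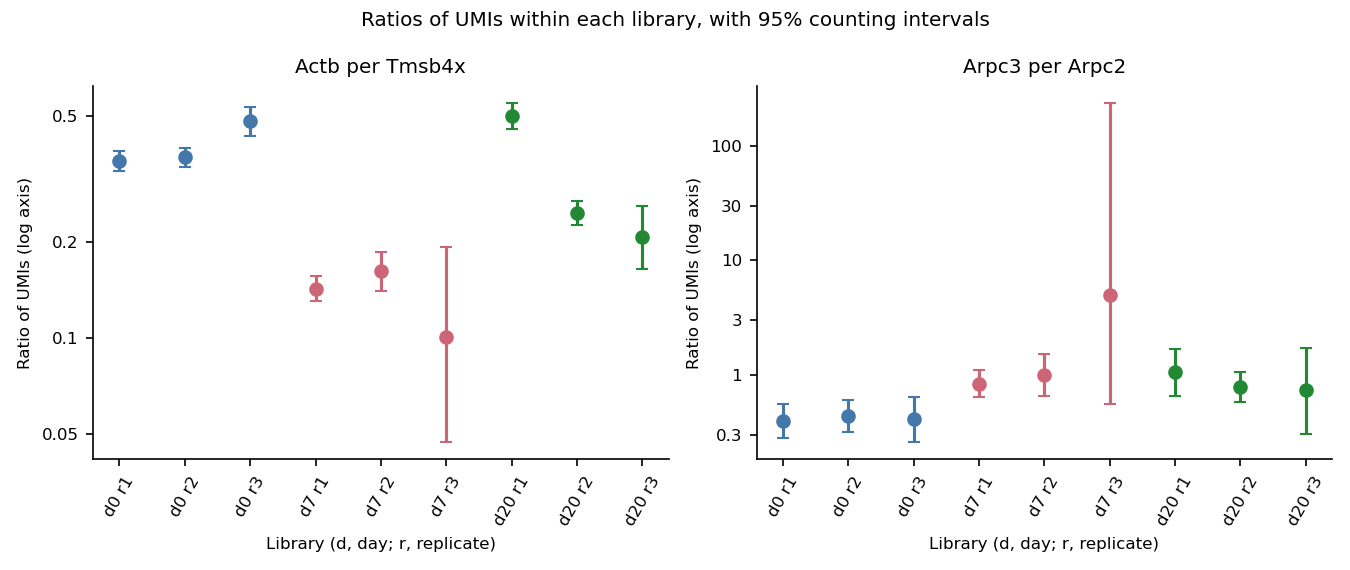
The ratio of Actb to Tmsb4x UMIs (left) and of Arpc3 to Arpc2 UMIs (right) in each library, on log axes, with the library on the x axis and 95% exact intervals that cover counting error only. The 3 libraries of day 7 have the lowest Actb ratios, and all 6 libraries after light lie above day 0 for Arpc3 per Arpc2, with an interval of 0.559 to 236 for day 7 replicate 3.

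L-plastin bundles filaments in leukocytes. Lcp1 had between 1 and 31 UMIs per library, or 116, 149 and 326 CPM at day 0, 136, 128 and 150 at day 7, and 204, 170 and 46.1 at day 20. All days overlapped. Against day 0 the log2 differences were -0.40 ± 0.46 after 7 days and -0.20 ± 0.45 after 20, and 0.20 ± 0.49 between day 20 and day 7 (edgeR adjusted p = 0.536, 0.841 and 0.856).

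Vimentin forms intermediate filaments and is abundant in migrating cells and in Müller glia. Vim was the rarest member, with 6, 4 and 6 UMIs at day 0, 26, 11 and 1 at day 7, and 4, 15 and 7 at day 20. These counts gave 36.7, 21.2 and 69.8 CPM at day 0, 114, 117 and 150 at day 7, and 50.9, 98.3 and 322 at day 20. Day 7 lay above day 0 without overlap, and day 20 overlapped both. Vim was 1.66 ± 0.61 higher on the log2 scale at day 7 (edgeR adjusted p = 0.0429), 1.51 ± 0.63 at day 20 compared with day 0 and -0.15 ± 0.59 at day 20 compared with day 7, and the last 2 did not pass (adjusted p = 0.240 and 0.914). Leaving out day 0 replicate 1 or 2, or day 7 replicate 1 or 2, ended the call at day 7, with adjusted p from 0.0576 to 0.169 and log2 differences from 1.33 to 2.17 over the 9 fits. It was also lost with library totals (adjusted p = 0.0728), with DESeq2 size factors (adjusted p = 0.0578) and with the DESeq2 Wald test (adjusted p = 0.153).

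Because Vim marks glia as well, its cells were counted. In all, 45 of the 707 retained cells held the 80 UMIs of Vim, at most 5 in a cell, and these cells had a median of 2097 UMIs against 862 in the cells without Vim. UMIs of a list of 9 Müller glia and astrocyte markers made up 0.0748% of all UMIs in the cells with Vim and 0.0878% in those without. The removed cluster led by Müller glia genes held 57 Vim UMIs in 70 cells, and whether all of these were glia was not tested. Over libraries, the same glial list took 0.0834% to 0.154% of UMIs at day 0, 0.0430% to 0.300% at day 7 and 0.0538% to 0.198% at day 20, so the days overlapped. The values of 0.300% and 0.198% came from the small libraries, day 7 replicate 3 and day 20 replicate 3. Day 7 overlapped day 0 only through its replicate 3. These small libraries also had the highest Vim CPM of their day. The part of the glial list in the Vim difference was not tested.

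**Figure D3:**
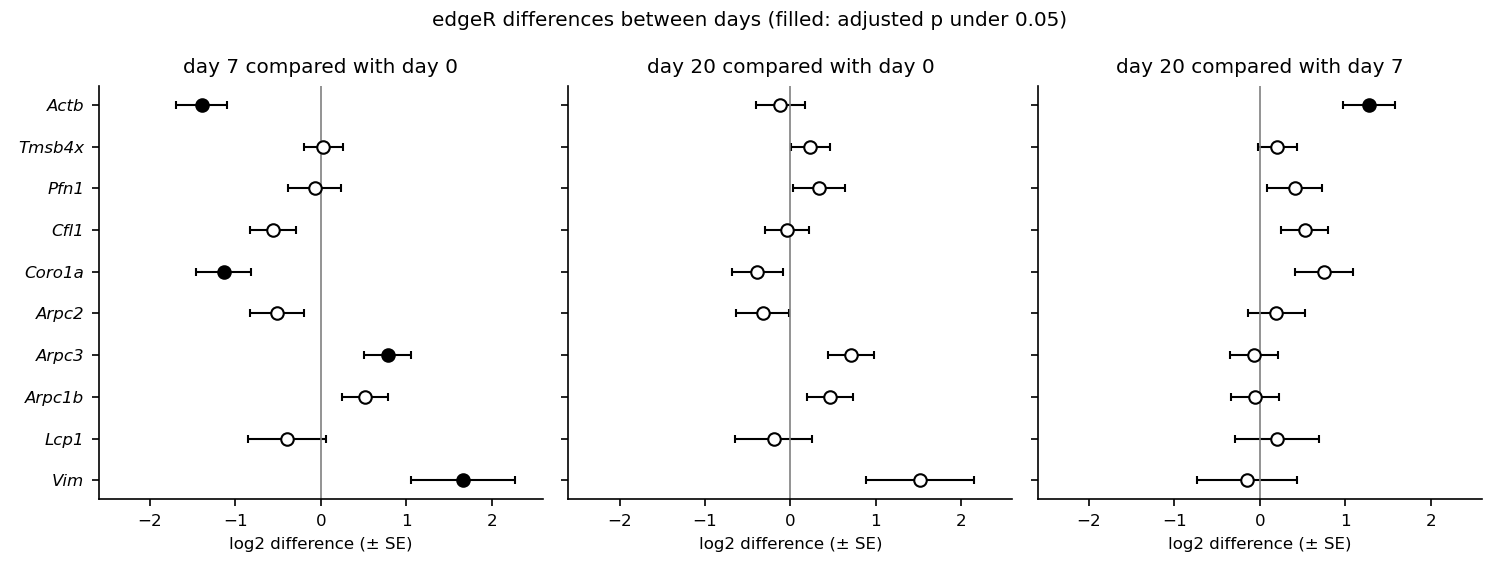
Log2 differences from edgeR with SE for the 10 genes, with 1 panel for each comparison between days and a vertical line at 0. Filled points have an adjusted p under 0.05. Actb is the only filled gene in more than 1 panel, lower at day 7 than at day 0 and higher at day 20 than at day 7, and no gene is filled between day 20 and day 0.

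Between day 20 and day 0, none of the 10 genes passed the test in edgeR, 2 had an unadjusted p under 0.05 (Arpc3 and Vim), and DESeq2 called none. Of all genes, 4.18% were called. The libraries of the 2 days did not overlap for 2 of the 10 genes (Arpc3 and Arpc1b), against 26.7% of all genes. Between day 20 and day 7, 1 of the 10 genes was called, Actb, against 7.66% of all genes called higher, and 2 did not overlap (Actb and Cfl1), against 23.2%. The comparison of the mean of days 7 and 20 with day 0 shares its libraries with the others. It called Arpc3 (0.75 ± 0.24) and Vim (1.59 ± 0.54) higher and Actb (-0.76 ± 0.25) and Coro1a (-0.76 ± 0.26) lower, with edgeR adjusted p from 0.0302 to 0.0394, where 6.19% of all genes were called higher and 18.6% lower. In that comparison 2 members did not overlap (Arpc3 and Arpc1b), against 16.8% of all genes. The remaining members had log2 differences of 0.13 for Tmsb4x, 0.13 for Pfn1, -0.30 for Cfl1, -0.42 for Arpc2, 0.49 for Arpc1b and -0.30 for Lcp1 there. The calls for Actb and Coro1a in it were lost whichever library was left out, with adjusted p up to 0.252 and 0.271, that for Arpc3 in 7 of the 9 fits (up to 0.170) and that for Vim in 3 (up to 0.192). Without both small libraries Vim, Arpc3 and Arpc1b were called, all higher, where 273 of 2226 genes were called higher.

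Across single cells, each of the 530 cells with at least 565 UMIs was thinned to 565 UMIs and 177 shallower cells were left out. A UMI of Actb was then found in 78.6% ± 8.0 of cells before light (mean and SD of 3 libraries), in 64.8% ± 9.2 after 7 days and in 72.3% ± 7.8 after 20, and the 3 days overlapped. The number of UMIs per cell differed more than the share. The median over pooled cells was 2 Actb UMIs at day 0, 1 at day 7 and 2 at day 20, the 95th percentile 14 at day 0, 5 at day 7 and 14.8 at day 20, and the mean 3.42 to 3.87 in the libraries of day 0, 0.75 to 1.49 at day 7 and 2.13 to 4.29 at day 20. Cells with many Actb UMIs were rarer at day 7, while most cells still held 1.

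Tmsb4x was found in 97.6% ± 4.2, 99.8% ± 0.4 and 99.5% ± 0.9 of thinned cells, with a median of 10, 9 and 11 UMIs per cell. Coro1a was found in 20.5% ± 7.1 at day 0, 7.27% ± 6.85 at day 7 and 17.8% ± 7.6 at day 20. Before light Pfn1 and Cfl1 were found in 50.1% ± 1.0 and 53.2% ± 4.7 of cells, against 34.6% ± 9.0 and 38.6% ± 11.9 at day 7, and 45.5% ± 6.5 and 44.3% ± 4.0 at day 20. Arpc2 was found in 24.4% to 29.3%, Arpc3 in 18.2% to 31.7% and Arpc1b in 30.0% to 33.3% of cells, as means of the 3 days. Lcp1 was found in 8.01% to 12.3% and Vim in 2.45% to 7.53%. The highest Lcp1 mean, at day 7, includes 1 of 4 cells in replicate 3. At day 7, replicate 3 had only 4 cells deep enough for this count. Without thinning, the means for Actb were 83.8%, 67.9% and 77.7%.

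A share at or below that of cells of another type is not by itself evidence of expression. It is not evidence of absence either, since those cells may express the gene themselves. In the removed rod-led cluster, whose 59 deep cells had a median of 1367 UMIs against 1135 in the retained cells, Tmsb4x was found in 69.5% of thinned cells, Actb in 35.6%, Cfl1 in 18.6%, Arpc2 in 16.9% and Pfn1 in 10.2%. Arpc3, Arpc1b, Coro1a and Lcp1 were found there in 1.69% to 5.08%, and Vim in 0 of 59 cells, which allows up to 6.06% (exact 95% interval). The mean shares for Vim at day 0 and day 7 were not above that limit. At day 20 the mean was 7.53%, from 2.38%, 1.47% and, in the 16 cells of replicate 3, 18.8%. For Coro1a and Lcp1 the upper end of the same interval was 9.09%. The means of Coro1a at day 7 (7.27%) and of Lcp1 at day 0 and day 20 (8.03% and 8.01%) lay below it. By library, Coro1a at day 7 was at 13.6%, 8.20% and, from the 4 cells of replicate 3, 0%. Arpc2 at day 0 and day 7 (28.1% and 24.4%) lay below its upper end of 28.97%, but above the 16.9% found in the rod-led cluster. All intervals cover counting error only.

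**Figure D4:**
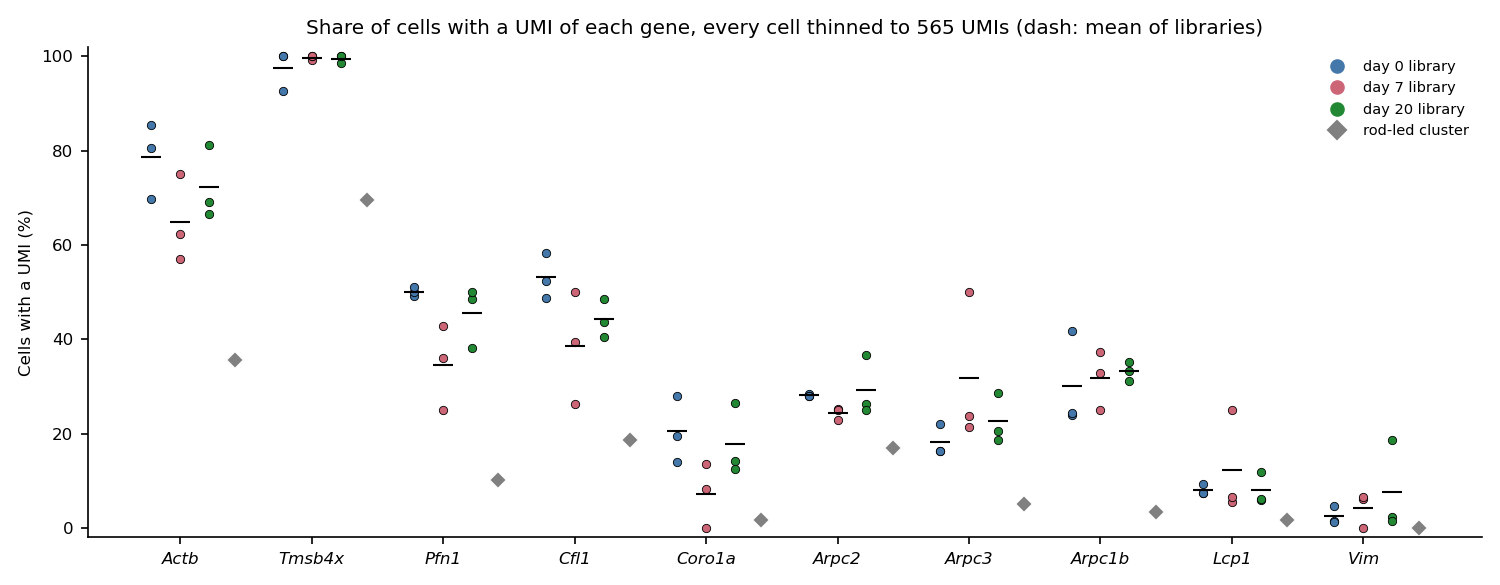
The share of cells with at least 1 UMI of each gene after every cell was thinned to 565 UMIs, in percent on a linear axis. Coloured points are libraries by day, dashes the mean of 3 libraries, and grey diamonds the removed rod-led cluster. Tmsb4x is found in nearly every cell, Actb in 57.1% to 85.4% and Vim in at most 18.8% of the cells of a library.

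The members' levels varied little together from cell to cell. Over the 45 pairs of the 10 genes in 530 thinned cells of 9 libraries, the Spearman correlation lay between -0.10 and 0.25 with a median of 0.01, and 1 pair, Tmsb4x and Pfn1, exceeded 0.2. These sparse counts share a fixed total per cell, and the values are a description.

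The retained cells fell into 5 clusters, formed without the 10 genes among the variable genes. Cluster 0 was led by ribosomal protein copies and Sparc, cluster 1 by Fabp5, Ms4a7, Gpnmb and Lyz2 with the lens crystallins Cryaa and Crybb2 among its 10 leading genes, cluster 2 by Apoe, Fcrls and Ifi27l2a, cluster 3 by Cst3, P2ry12 and Csf1r, and cluster 6 by immediate early genes such as Klf2, Jun and Klf4. Actb stood at 5854 CPM in cluster 0, 7111 in cluster 3 and 5495 in cluster 6, and at 2651 in cluster 1 and 2593 in cluster 2. Clusters 1 and 2 held 230 of the 267 cells of day 7 and 8 of the 254 of day 0, whereas clusters 3 and 6 held 4 cells of day 7 and 160 of day 0. The day and the cluster of a cell therefore went together in these libraries. Cells of cluster 6 were deeper, with a median of 5491 UMIs against 563 to 1333 in the other retained clusters. Without cluster 6, the UMIs of the day 0 libraries fell from 163460 to 78756, 188265 to 74605 and 85938 to 42372. Those of day 7 went from 227751 to 225901 and 93712 to 89027, with 6673 unchanged in replicate 3. Levels at day 0 thus weigh the 14, 25 and 9 cells of cluster 6 heavily.

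Within cluster 0, the 1 cluster with over 30 cells of each day, Actb had 6778 CPM at day 0 (95% counting interval 6089 to 7523, 86 cells), 2764 at day 7 (2088 to 3590, 33 cells) and 6124 at day 20 (5480 to 6823, 80 cells). By library with at least 10 such cells, these were 6389, 6544 and 8008 at day 0, 2144 at day 7 and 9495, 4552 and 2958 at day 20. The single library of day 7 lay below the 6 others. In clusters 1 and 2, Actb was lower at day 7 (2288 and 2190) than at day 20 (4817 and 3558), again without overlap of the libraries with at least 10 cells in cluster 1 or in cluster 2. Tmsb4x in cluster 0 was at 26765, 25423 and 26228 CPM at the 3 days.

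Counts of the other called genes were low in cluster 0, and their intervals overlapped between day 0 and day 7. Coro1a had 288, 247 and 279 CPM at day 0, day 7 and day 20, from 15, 5 and 15 UMIs, and Arpc3 had 403, 247 and 707, from 21, 5 and 38 UMIs. Vim had 3, 1 and 3 UMIs there. Between clusters, Coro1a was at 656 in cluster 3 and 623 in cluster 6, and at 246 to 307 in clusters 0, 1 and 2. Arpc3 was at 260 in cluster 6 and 582 in cluster 1, and Vim was at 132 in cluster 1 against 29 in cluster 3. These are values of cells pooled over days and libraries, whose shares differ between the clusters, with no test.

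**Figure D5:**
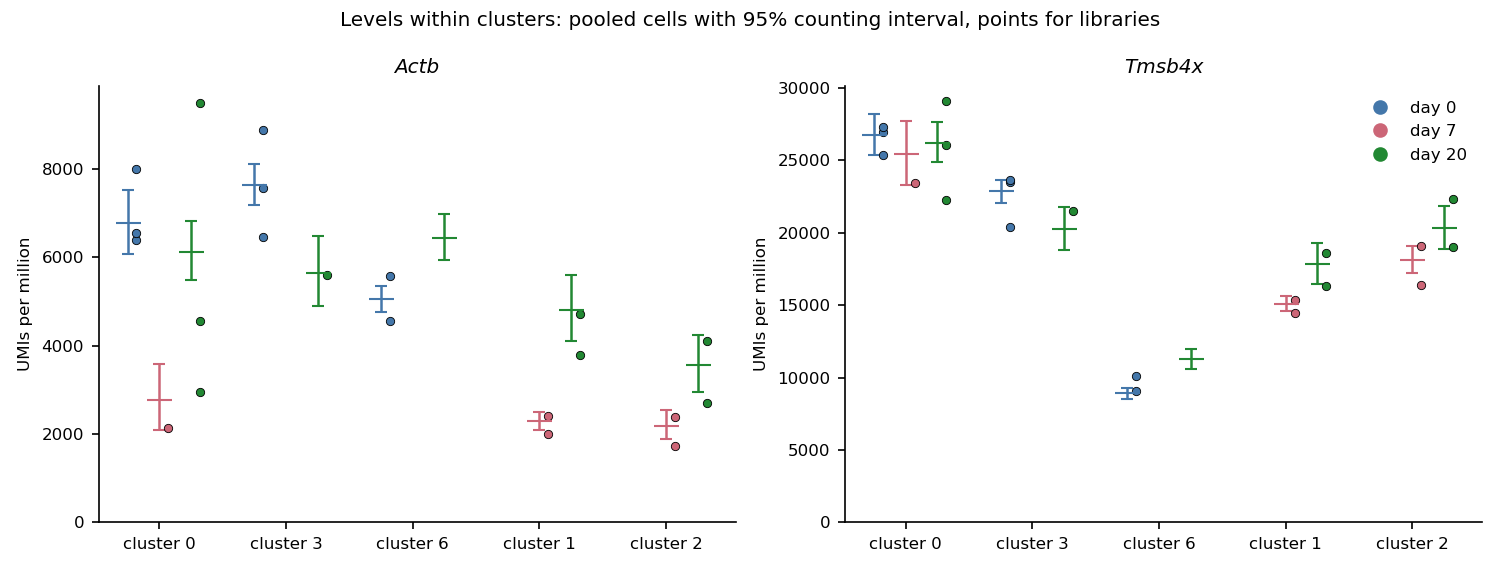
CPM of Actb (left) and Tmsb4x (right) within the 5 retained clusters, on linear axes from 0. Dashes with bars are pooled cells of a day with 95% counting intervals, shown for at least 10 cells, and points are libraries with at least 10 cells of that cluster. Actb at day 7 is 2764 or lower in the 3 clusters shown for that day.

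Other measures moved with the same libraries. Immediate early genes took 3.81% to 4.82% of UMIs at day 0, 0.261% to 0.869% at day 7 and 1.00% to 2.28% at day 20. Heat shock genes took 0.403% to 0.538%, 0.165% to 0.229% and 0.226% to 0.239%. Microglia markers took 1.44% to 1.61% at day 0, 0.497% to 0.659% at day 7 and 1.00% to 1.12% at day 20, and macrophage and monocyte markers 0.114% to 0.157%, 0.644% to 1.03% and 0.315% to 0.557%. General myeloid markers took 8.66% to 9.28%, 3.31% to 3.98% and 6.62% to 8.57%, and MHC class II genes 0.0632% to 0.221%, 0.270% to 1.55% and 0.299% to 1.48%. Rod markers took 0.117% to 0.689% at day 0 and at most 0.120% in each library after light, and lens genes took 1.18% in 1 library, day 7 replicate 1. Without cluster 6 the decrease of Actb at day 7 was -1.70 (edgeR adjusted p = 7.05e-05) and the difference of Arpc3 was 0.40 (adjusted p = 0.506). The part of the other measures in the differences was not tested, and the kind of cell and the day cannot be told apart here.

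Among 63 further actin genes in lists of the same pathway, 36 were tested. At day 7, 5 were called lower and none higher, with a median log2 difference of -0.48 against -0.12 for all genes. The 5 of 36 called lower are a smaller share than the 21.5% of all genes. Marcksl1 (-3.43 ± 0.52) and Fscn1 (-3.08 ± 0.41), which encode an actin-binding MARCKS relative and the bundling protein fascin, differed most. Cyfip1, of the WAVE complex that activates Arp2/3, was at -1.73 ± 0.40, Actg1, the γ-actin gene, at -1.62 ± 0.31 and Msn, which encodes the membrane linker moesin, at -1.26 ± 0.36. Their edgeR adjusted p lay between 2.47e-05 and 0.0123. Actg1 went from 2003 ± 167 CPM at day 0 to 615 ± 111 at day 7 and 1028 ± 413 at day 20 (SD, n = 3). No member of the Arp2/3 list outside the 3 above was called among 4 tested, with a median of 0.00, and no tested gene was called in the lists of capping and severing proteins or of myosins and tropomyosins.

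Some integrin and tubulin genes also fell at day 7. Of 4 tested integrin genes, Itgb2 (-1.58 ± 0.37), Itgb5 (-1.36 ± 0.33) and Itgam (-1.34 ± 0.41) were lower, and of 4 tested tubulin genes, Tuba1a (-2.36 ± 0.48) and Tuba1b (-1.08 ± 0.38), with edgeR adjusted p from 0.0013 to 0.0355, where 21.5% of all genes were called lower. Tuba1b passed in 1 of the 9 fits that left out 1 library, Itgam in 5 and Msn in 4. Itgam was tested on the counts of 1 gene identifier, not on the sum over its 2 identifiers. At day 20 compared with day 7, Marcksl1 (2.68 ± 0.54), Fscn1 (2.06 ± 0.45), Tuba1a (2.33 ± 0.52) and Tuba1b (1.28 ± 0.39) were higher (edgeR adjusted p from 0.0044 to 0.0497), where 7.66% of all genes were called higher. They were called in 8, 6, 7 and 0 of the 9 fits, respectively. At day 20 compared with day 0 none of the 36 was called, with 4 at an unadjusted p under 0.05 and none called among integrins or tubulins.

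Levels of other genes, as log2(CPM + 1), were correlated with the summed log2(CPM + 1) of the 10 over the 9 libraries. That sum differs from the share of UMIs given above. It weighs every member alike, also those with 1 UMI in day 7 replicate 3, such as Coro1a. The most alike were C1qa (Pearson r = 0.94), Rap1b (0.93), AF251705 (0.93), Irf2bpl (0.91) and Ctss (0.91). C1qa went from a mean of 7898 CPM at day 0 to 4838 at day 7 and 8863 at day 20. Irf2bpl had a mean of 4.39 CPM at day 7, so its correlation rests on counts near the floor. The 9 libraries fall into 3 days, and these correlations are a description.

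Among cells after light, those with at least 2 UMIs of the 4 MHC class II genes after thinning were compared with those with none, in the 4 libraries that held 10 or more cells of both kinds and with the library as a block. Lcp1 and Vim had too few counts to be tested. None of the 8 tested genes was called by edgeR or DESeq2, and 1 had an unadjusted p under 0.05 in edgeR. Of all 378 tested genes, 4 (1.06%) were called. These were the 4 MHC class II genes by which the cells had been divided, so this share gives no rate for other genes. Coro1a was 0.90 ± 0.33 higher in cells with MHC class II (edgeR adjusted p = 0.395), and higher in 4 of 4 libraries. Actb was -0.80 ± 0.36 (edgeR adjusted p = 0.536), with 2269 against 2488 CPM in day 7 replicate 1, 1416 against 3681 in day 7 replicate 2, 3982 against 15800 in day 20 replicate 1 and 4925 against 4758 in day 20 replicate 2. It was lower in 3 of the 4 libraries, and day 20 replicate 1 had the widest gap. Actb was called lower in 2 alternatives. These set the high class from 1 thinned UMI (8 of 568 genes called) or left out day 20 replicate 2 (5 of 313). The other 6 tested genes had log2 differences between -0.20 and 0.23.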

How the data were processed

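The deposited matrices held UMI counts per gene and cell barcode for 9 libraries, which the authors made with 10x 3′ v2 chemistry and Cell Ranger on mm10, per the labels and the study's methods. The Cell Ranger version is not given in the sources used here. Titles give the light exposure in hours, and treatment labels give it in days, which were used.

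Each barcode was kept in the library with its highest UMI total, with at least 200 genes and under 10% mitochondrial UMIs. Cells were clustered with Seurat 5.3.0 (2000 variable genes without the members, 10 components, resolution 0.8), and clusters with at least 3 non-myeloid markers among their 10 leading genes were left out. The requirement that a leading gene have a UMI in 25% of a cluster's cells was chosen after a few barcodes rich in crystallins had led a cluster. No doublet caller was run. UMIs were summed per library and tested with edgeR 4.0.16 in R 4.3.3 (TMM, filterByExpr, quasi-likelihood, Benjamini-Hochberg, threshold 0.05), all 9 libraries in 1 fit, after a test on simulated data. DESeq2 1.42.0 was an alternative. Named genes outside the members are the called ones of fixed lists, at most 5 higher and 5 lower per comparison. The members and lists were chosen with earlier results of these data known.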

Additional observations from a re-analysis of the deposited data

How the results depend on the processing

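At day 7 compared with day 0, 4 members were called. The number was 0 in the deposited counts and without a filter on low counts. It was 2 with all barcodes past quality control (Vim and Arpc3, both higher) and without the immediate early cluster (Actb and Cfl1, both lower). Without the deepest 5% of barcodes, with DESeq2 size factors and with the DESeq2 Wald test it was also 2 (Actb and Coro1a, both lower). It was 3 with the per-barcode marker rule, a minimum of 100 genes and a 5% mitochondrial limit (Vim and Arpc3 higher, Actb lower). Library totals also gave 3 (Actb, Coro1a and Cfl1, all lower). Only 9 members were tested without the deepest barcodes and without the immediate early cluster. The latter alternative, like the one without both small libraries, was chosen after seeing the data. Over all genes, the main fit called 432 of 1292. The deposited counts gave 69 of 2623, no filter 253 of 12601 and all barcodes 183 of 2103. Without the deepest barcodes 247 of 1031 were called, and without the immediate early cluster 106 of 1025. DESeq2 size factors and the Wald test gave 440 and 276 of 1292, and library totals 474 of 1292. The per-barcode rule gave 356 of 1347, 100 genes 312 of 1456 and the 5% limit 372 of 1386. At day 20 compared with day 7 the number of members called was 0 instead of 1 with the deposited counts, all barcodes, no deepest barcodes and no filter. Over all genes these settings called 0 of 2623, 12 of 2103, 8 of 1031 and 39 of 12601, against 116 of 1292 in the main fit. For the mean of both days the number of members was 0 instead of 4 with the deposited counts and no filter, 1 with the Wald test or without the immediate early cluster, and 2 with all barcodes, the per-barcode marker rule, a minimum of 100 genes, no deepest barcodes, library totals or DESeq2 size factors. Over all genes, the main fit called 320 of 1292, the deposited counts 61 of 2623 and no filter 228 of 12601. The Wald test called 199 of 1292, and the fit without the immediate early cluster 98 of 1025. The settings with 2 members called ranged from 156 of 2103 (all barcodes) to 361 of 1292 (library totals). With MHC class II high set from 1 thinned UMI, 1 member was called instead of 0 (Actb, lower), and 8 of 568 genes. At day 20 compared with day 0 the number of members called was 0 in every alternative run. Leaving out 1 library gave 1 to 4 calls at day 7, 0 to 0 at day 20, 0 to 1 for day 20 against day 7, 0 to 2 for the mean and 0 to 1 for MHC class II. The cause was not tested. Over all genes at day 7, 154 of 1292 tested were called higher and 278 lower, against 66 and 210 of 1292 with the DESeq2 Wald test. They were 345 and 342 of 2226 without both small libraries and 283 and 297 of 1978 without day 7 replicate 3 alone.

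Deviations from the day means correlated between -0.08 and 0.08 for libraries of the same replicate number. Such values from sparse counts cannot show whether the numbers mark pairs or batches. Replicate 3 had the fewest retained cells of each day, at 55, 10 and 22. Its TMM factors were 1.05, 2.08 and 1.42, against 0.646 to 0.923 in the other libraries. A batch was not tested. With the replicate number as a block, 3 members were called at day 7 (Vim, Actb and Coro1a, without Arpc3), 0 at day 20, 1 at day 20 against day 7 and 4 for the mean.

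The summed level was 2.18% and 2.85% at day 0 with all barcodes and without the deepest ones. It was 2.41%, 1.86%, 2.01%, 2.03% and 2.02% at day 7 with the deposited counts, all barcodes, the per-barcode rule, 100 genes and a 5% mitochondrial limit, and 2.71%, 2.58% and 3.14% at day 20 with the deposited counts, all barcodes and no deepest barcodes. Without 1 library it was 2.59% to 2.68%, 2.13% to 2.28% and 2.87% to 3.01%.

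Signs changed only for differences that had not passed the test. For Tmsb4x at day 7 the log2 difference was -0.020 (per-barcode rule), -0.063 (100 genes), -0.043 (5% limit), -0.12 (no deepest), -0.045 (library totals), -0.065 (size factors), -0.063 (Wald) and -0.51 (no immediate early cluster). Without that cluster it was also 0.26 for Lcp1 at day 7, -0.10 for Tmsb4x and 0.19 for Lcp1 at day 20, 0.14, 0.028 and -0.067 for Arpc3, Arpc1b and Lcp1 at day 20 against day 7, and -0.30, -0.085 and 0.23 for Tmsb4x, Pfn1 and Lcp1 in the mean. With the deposited counts it was 0.034 for Pfn1 and 0.022 for Lcp1 at day 7, 0.061 for Cfl1 and 0.041 for Lcp1 at day 20, and 0.031 for Lcp1 in the mean. With all barcodes it was 0.14 for Pfn1 and 0.048 for Lcp1 at day 7, 0.10 for Actb and 0.19 for Cfl1 at day 20, -0.066 for Lcp1 at day 20 against day 7, and 0.015 for Lcp1 in the mean. Without both small libraries it was 0.26 for Pfn1 at day 7, 0.17, 0.0027 and 0.11 for Actb, Cfl1 and Lcp1 at day 20, and -0.080, -0.12 and -0.069 for Tmsb4x, Pfn1 and Arpc2 at day 20 against day 7. Without a filter Pfn1 was 0.011 at day 7. At day 20 against day 7, Arpc3 was 0.18 (no deepest) and 0.042 (library totals), Arpc1b 0.14 (100 genes), 0.039 (no deepest) and 0.043 (library totals), Lcp1 -0.012 (per-barcode), -0.087 (100 genes) and -0.35 (no deepest), and Vim 0.049 (Wald).

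Without 1 library the differences ran from -0.089 to 0.32 for Tmsb4x, -0.17 to 0.22 for Pfn1 and -0.61 to 0.19 for Lcp1 at day 7, from -0.52 to 0.15 for Actb, -0.094 to 0.084 for Cfl1 and -0.45 to 0.35 for Lcp1 at day 20, and from -0.53 to 0.27 for Lcp1 in the mean. At day 20 against day 7 they ran from -0.045 to 0.31 for Tmsb4x, -0.039 to 0.30 for Arpc2, -0.20 to 0.0053 for Arpc1b, -0.12 to 0.35 for Lcp1 and -0.67 to 0.12 for Vim. Depth limited Vim and Lcp1 most, with 80 and 162 UMIs in all.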
